A study of Mus musculus with 18 samples.

Results

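T lymphocyte genes were followed through the mammary glands of mice that carry or lack the kinase domain of Ron, a receptor tyrosine kinase. A set of 35 genes was listed by symbol, from the subunits of the T cell receptor complex to markers of naive, regulatory and cytotoxic T cells. The platform annotation names a probe set for 33 of them, out of 18193 genes measured in all, and 64 probe sets cover these 33. Lck and Tcf7 have no probe set in that annotation and were not analysed here. A probe set was used where it is annotated to 1 symbol alone, and genes with several probe sets were given the average of their log2 ratios.

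T cells recognise peptides held by major histocompatibility molecules through a T cell receptor that signals through the CD3 and zeta chains. CD4 marks helper and regulatory T cells, CD8 marks cytotoxic T cells, and naive T cells carry CCR7 and the interleukin-7 receptor as they circulate between blood and lymph nodes. In the mouse, mammary fat pads hold lymph nodes rich in T and B cells, and T cells also lie scattered in the gland's epithelium and stroma.

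RNA came from whole mammary glands of virgin female mice, either RonTK-/-, in which the tyrosine kinase domain of Ron has been deleted, or RonTK+/+, the wild-type control. Mice of both genotypes were 5, 6 or 7 weeks old and received no treatment, which gives 6 groups of 3 arrays. The labels do not say whether each array is a separate animal, so p-values measure only the spread between these arrays, which may be technical. The sources used here do not give whether lymph nodes were left in the glands. In RNA from a whole gland, fewer T cells and less RNA per T cell cannot be told apart.

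The deposited values are linear ratios, and over the 9 RonTK+/+ arrays the median of every probe set lay between 1 and 1.00356. A log2 ratio of 0 is therefore at or near the RonTK+/+ median of that gene, and the level of a gene cannot be set against that of another gene. All 18 arrays had a median ratio of 1, and 0 of the 153 pairs of arrays held identical values. The array number within a group is used only as a name, and values below are given in the order of array 1, 2 and 3.

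The median of the T lymphocyte genes divided the arrays into 2 levels, a narrow low one and a wider higher one. Both levels occurred in both genotypes. The median over the 33 genes was 0.20, 0.92 and -2.12 at 5 weeks, then -1.82, 0.62 and 0.02 at 6 weeks, then -1.93, 0.07 and -1.76 at 7 weeks in the RonTK+/+ arrays. In the RonTK-/- arrays the median was -0.39, -1.95 and 0.64 at 5 weeks, then 0.41, 0.46 and 0.58 at 6 weeks, then -1.85, -1.78 and -1.89 at 7 weeks. In 8 arrays, 4 of each genotype, it lay between -2.12 and -1.76, and in the other 10, 5 of each genotype, between -0.39 and 0.92. The low arrays were array 3 of the 5-week, array 1 of the 6-week and arrays 1 and 3 of the 7-week RonTK+/+ group, with array 2 of the 5-week and all 3 arrays of the 7-week RonTK-/- group. All 3 arrays of the 6-week RonTK-/- group were among the other 10, and the remaining 4 groups held arrays of both levels. Because 5 of the 9 RonTK+/+ arrays were among the higher ones, 0 on this scale lies near the lowest of those 5 for most of the genes.

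For 30 of the 33 genes every one of these 8 arrays was below every one of the other 10, a pattern that 4.32% of all genes show. The genes themselves picked out the 8 arrays, so nothing is read from that count. For 28 genes the widest gap between neighbouring arrays fell at the same place. RonTK+/+ 5-week array 2 was the highest array for 27 genes. Over the 18 arrays the range of a gene, highest minus lowest log2 ratio, had a median of 3.16 for the 33 genes and of 0.54 for all genes. A range of at least 4 was found for 10 of the 33 genes and for 0.929% of all genes, and a range of at least 2 for 25 of the 33 and for 4.96% of all.

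**Figure D1:**
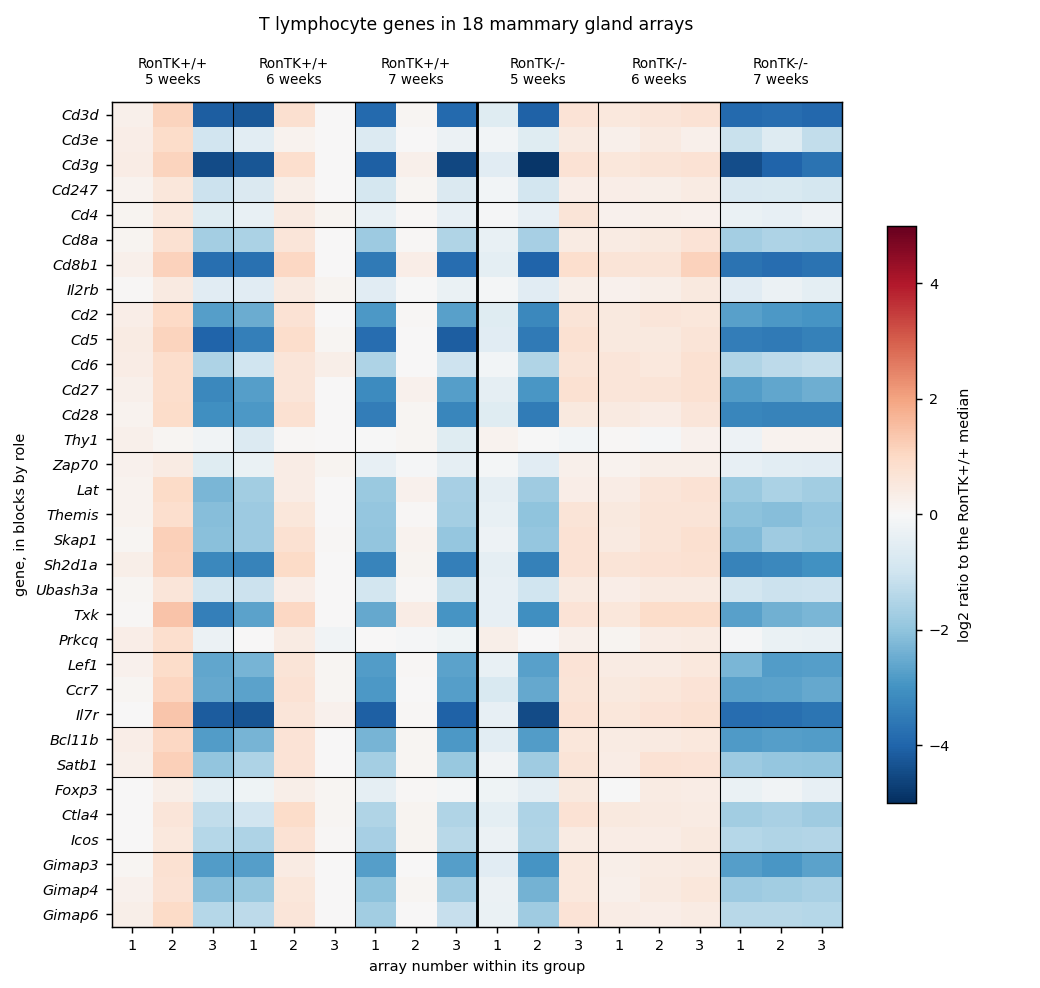
Log2 ratio of each of the 33 T lymphocyte genes (rows, in blocks by role) in each of the 18 arrays (columns, by genotype, age and array number). Blue is below and red above the RonTK+/+ median of the gene. The same 8 columns are blue for nearly all rows, from -4.87 for Cd3g to values near 0 for Thy1 and Prkcq.

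Genes of other cell types parted the same arrays. The mean of 16 B lymphocyte genes ran from -1.76 to -1.63 in the 8 low arrays and from -0.32 to 0.79 in the other 10, and 13 of the 16 had the 8 arrays below all others. Among the defining B cell genes, Ms4a1, which encodes CD20, ran from -4.41 to -3.96 in the low arrays, whereas Pax5 ran from -0.31 to 0. Genes listed for lymph node stroma and high endothelial venules had means of -1.87 to -1.13 against -0.31 to 0.61, with 7 of 9 apart. The 7 include the lymphotoxin genes Lta and Ltb, so the list is not one of stroma and venules alone. In the low arrays Ltb ran from -3.97 to -2.95 and Glycam1 from -6.64 to -5.29. The value of -6.64 is the lowest deposited ratio, 0.01, which 103 values share, so it may be a floor and not a measured level. Of the values of the T lymphocyte probe sets, 0 were at this ratio. Tnfsf11, at -1.23 to 3.17 in the low arrays, and Fmod overlapped. The part of these other cell types in the T lymphocyte values was not tested.

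The skeletal muscle list ran the other way. Its 21 genes had a mean of 0.17 to 0.66 in the 8 low arrays and of -5.60 to 0.51 in the other 10. The exceptions were RonTK+/+ 5-week array 1 and RonTK-/- 5-week array 1, where the muscle mean was 0.0048 and 0.51 while the T lymphocyte median was 0.20 and -0.39. Several muscle genes, among them Acta1, Myh4 and Tnnt3, reached the lowest deposited ratio, -6.64 in log2. The lowest muscle means may thus be limited by a floor. Of the lists for other cells, 0 of 10 endothelial, 0 of 8 fibroblast, 0 of 7 adipocyte, 0 of 10 luminal epithelial and 1 of 11 macrophage genes had the 8 arrays below the other 10.

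The invariant chains of the T cell receptor complex differed widely in how far they moved. Cd3g, which encodes CD3 gamma, was at 0.37, 1.11 and -4.46 at 5 weeks, then -4.27, 0.82 and 0 at 6 weeks, then -4.06, 0.26 and -4.54 at 7 weeks in the RonTK+/+ arrays. In the RonTK-/- arrays Cd3g was at -0.57, -4.87 and 0.73 at 5 weeks, then 0.55, 0.65 and 0.73 at 6 weeks, then -4.45, -4.00 and -3.68 at 7 weeks. The highest and the lowest array were thus 5.98 log2 units or 63.2-fold apart, the widest range of the 33 genes, and each genotype held arrays at both ends.

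Cd3d, which encodes CD3 delta, was at 0.26, 1.12 and -4.10 at 5 weeks, then -4.25, 0.78 and 0 at 6 weeks, then -3.88, 0.11 and -3.87 at 7 weeks in RonTK+/+. It was at -0.59, -4.03 and 0.70 at 5 weeks, then 0.52, 0.62 and 0.74 at 6 weeks, then -3.90, -3.79 and -3.91 at 7 weeks in RonTK-/-. The 8 low arrays of Cd3d lay between -4.25 and -3.79, and no array lay between -3.79 and -0.59.

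Cd3e, which encodes CD3 epsilon, was at 0.34, 0.92 and -0.96 at 5 weeks, then -0.51, 0.18 and 0.02 at 6 weeks, then -0.69, 0 and -0.29 at 7 weeks in RonTK+/+. It was at -0.14, -0.61 and 0.44 at 5 weeks, then 0.26, 0.46 and 0.26 at 6 weeks, then -1.12, -0.64 and -1.22 at 7 weeks in RonTK-/-. Its range was 2.14, and the 8 low arrays ended at -0.29, close to the -0.14 of the lowest of the other 10. Its widest gap lay below the single highest array and not at the place where Cd3d and Cd3g divide.

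Cd247, which encodes the zeta chain that carries most of the signalling motifs of the complex, was at 0.17, 0.55 and -1.09 at 5 weeks, then -0.74, 0.31 and 0.02 at 6 weeks, then -0.86, 0.08 and -0.71 at 7 weeks in RonTK+/+. It was at -0.15, -0.91 and 0.34 at 5 weeks, then 0.34, 0.28 and 0.42 at 6 weeks, then -0.81, -0.77 and -0.87 at 7 weeks in RonTK-/-. The groups of arrays were those of Cd3d, with a range of 1.64. This is the range of the average of its 4 probe sets, whose own ranges ran from 0.28 to 4.64.

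The CD3 genes lie together on chromosome 9, and the sequence before each start is shown as a description. Cd3g, Cd3d and Cd3e have 1 probe set each, so the size of each range is a statement on that probe set. A link between these sequences and the ranges was not tested. Cd3g and Cd3d face away from each other with 1355 bases between their starts. The 250 bases before each start, written 5′ to 3′ on the strand of the gene, are from RefSeq (GRCm38.p6), at chr9:44980432-44980681 on the minus strand for Cd3g, chr9:44981536-44981785 on the plus strand for Cd3d and chr9:45009612-45009861 on the minus strand for Cd3e. Capitals mark AGGAAG, a core that ETS factors can bind, or its reverse complement.
Cd3g: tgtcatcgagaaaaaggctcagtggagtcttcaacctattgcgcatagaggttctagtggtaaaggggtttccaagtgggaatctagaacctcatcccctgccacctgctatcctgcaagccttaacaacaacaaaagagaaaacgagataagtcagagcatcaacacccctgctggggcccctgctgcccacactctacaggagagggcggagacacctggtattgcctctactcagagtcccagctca
Cd3d: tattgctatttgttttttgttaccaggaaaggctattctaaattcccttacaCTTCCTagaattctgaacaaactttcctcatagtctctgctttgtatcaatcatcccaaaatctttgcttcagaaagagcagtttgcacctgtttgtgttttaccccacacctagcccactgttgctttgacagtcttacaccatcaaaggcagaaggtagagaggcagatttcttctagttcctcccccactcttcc
Cd3e: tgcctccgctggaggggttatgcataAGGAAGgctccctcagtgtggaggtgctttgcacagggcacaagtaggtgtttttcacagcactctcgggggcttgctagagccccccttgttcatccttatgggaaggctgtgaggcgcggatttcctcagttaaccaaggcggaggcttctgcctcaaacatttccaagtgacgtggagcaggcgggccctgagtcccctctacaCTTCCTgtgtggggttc

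Those letters occur 0 times before Cd3g, 1 time before Cd3d and 2 times before Cd3e. Promoter sequences were found for 22 of the 33 genes, and 15 of the 22 (68.2%) hold AGGAAG on either strand, against 32.3% of 27025 genes with a window of this length. The RUNX core TGTGGT, scanned in the same way, was in 13.6% of the 22 and 15.9% of all, and cores of TCF/LEF factors (CTTTGA) were in 22.7% and 15.8%. The GATA core AGATAA was in 13.6% and 11.4%. Cd3g holds 1 GATA core and Cd3d 2 TCF/LEF cores, which are not in capitals. A match of 6 letters is a description only.

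The coreceptor genes differed in range, which is a statement on their probe sets. Cd4, the helper and regulatory T cell coreceptor, was at 0.12, 0.53 and -0.61 at 5 weeks, then -0.36, 0.44 and 0.12 at 6 weeks, then -0.39, 0.05 and -0.41 at 7 weeks in RonTK+/+. It was at -0.04, -0.40 and 0.66 at 5 weeks, then 0.20, 0.27 and 0.22 at 6 weeks, then -0.35, -0.41 and -0.25 at 7 weeks in RonTK-/-. All 8 low arrays were below all others, but by little, between -0.61 and -0.25 against -0.04 to 0.66, and the whole range was 2.40-fold. This is the range of the average of its 2 probe sets, whose own ranges were 0.98 and 1.64 log2 units.

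Cd8b1, the beta chain of the cytotoxic coreceptor, was at 0.27, 1.15 and -3.76 at 5 weeks, then -3.73, 1.04 and 0 at 6 weeks, then -3.55, 0.35 and -3.82 at 7 weeks in RonTK+/+. It was at -0.50, -3.99 and 0.85 at 5 weeks, then 0.64, 0.63 and 1.14 at 6 weeks, then -3.68, -3.80 and -3.70 at 7 weeks in RonTK-/-. Its low arrays lay between -3.99 and -3.55, and its range of 35.3-fold, from 1 probe set, was the fifth widest.

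Cd8a, the alpha chain, was at 0.14, 0.75 and -1.70 at 5 weeks, then -1.57, 0.61 and 0.02 at 6 weeks, then -1.80, 0.07 and -1.49 at 7 weeks in RonTK+/+. It was at -0.35, -1.65 and 0.42 at 5 weeks, then 0.41, 0.48 and 0.69 at 6 weeks, then -1.70, -1.53 and -1.59 at 7 weeks in RonTK-/-. The same arrays were low as for Cd8b1, but the range was 5.87-fold. This is the range of the average of its 5 probe sets, whose own ranges ran from 0.44 to 4.07 log2 units.

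Il2rb encodes the interleukin-2 receptor beta chain, carried by cytotoxic T cells and natural killer cells. Its values were 0.05, 0.45 and -0.55 at 5 weeks, then -0.57, 0.46 and 0.12 at 6 weeks, then -0.56, -0.02 and -0.34 at 7 weeks in RonTK+/+. They were -0.10, -0.58 and 0.29 at 5 weeks, then 0.22, 0.28 and 0.47 at 6 weeks, then -0.56, -0.29 and -0.48 at 7 weeks in RonTK-/-. The low arrays ended at -0.29 and the others began at -0.10, a narrow separation for an average of 2 probe sets with ranges of 0.58 and 1.85.

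Over Cd8a, Cd8b1 and Il2rb, the cytotoxic mean was -0.36 ± 1.46 (SD, n = 3), -0.40 ± 1.39 and -1.24 ± 1.19 in RonTK+/+ at 5, 6 and 7 weeks. In RonTK-/- it was -0.62 ± 1.32, 0.55 ± 0.19 and -1.93 ± 0.05. Only the 6-week and 7-week RonTK-/- groups had an SD under 1.

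Of 15 further genes of cytotoxic and natural killer cells outside the 33, 8 had the 8 arrays below the other 10. Ccl5, a chemokine stored by memory cytotoxic T cells, ran from -3.69 to -2.79 in the low arrays and from -0.51 to 1.04 in the others. Klrd1, the natural killer receptor CD94, ran from -3.26 to -1.19 and from -0.18 to 1.12, and Nkg7, a granule protein, from -2.22 to -1.40 and from -0.46 to 0.85. Among effector genes, Fasl, the ligand of a death receptor, ran from -0.65 to -0.27 against -0.08 to 0.67 and was apart, whereas Gzma, which encodes granzyme A, ran from -0.73 to 0.28 against -0.06 to 0.99 and overlapped. Over all 18 arrays Gzmb lay between -0.17 and 0.37, Gzmk between -0.07 and 0.11, Prf1, which encodes perforin, between -0.23 and 0.26, and Ifng, which encodes interferon gamma, between -0.16 and 0.60. The scale of these arrays cannot say whether such genes were detected.

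**Figure D2:**
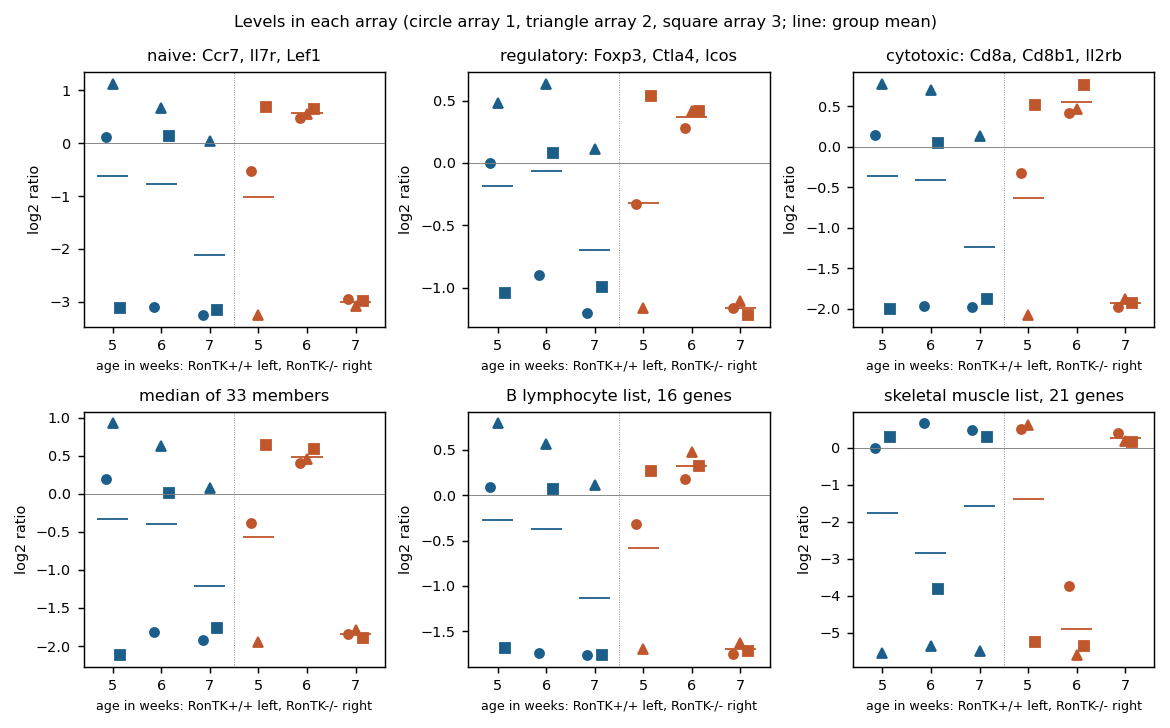
Mean log2 ratio per array (y axis, each panel with its own scale) of the naive, regulatory and cytotoxic markers, the median of the 33 genes, and the means of the B lymphocyte and skeletal muscle lists, by age in weeks, with RonTK+/+ in blue on the left and RonTK-/- in orange on the right. Circles, triangles and squares are arrays 1, 2 and 3 and short lines are group means. The same 8 arrays are low in the first 5 panels, down to -3.25 for the naive and -1.22 for the regulatory mean.

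Of the subset means, that of the naive T cell markers had the widest spread. Gene by gene this did not hold, since Cd8b1, with a range of 5.14, exceeded Ccr7 at 3.97 and Lef1 at 3.73. The cytotoxic mean also takes in Cd8a and Il2rb, each averaged with a probe set of small range (0.44 and 0.58). Il7r, the interleukin-7 receptor that keeps naive and memory T cells alive, was at 0.02, 1.37 and -4.16 at 5 weeks, then -4.30, 0.61 and 0.21 at 6 weeks, then -4.07, 0.06 and -4.04 at 7 weeks in RonTK+/+. It was at -0.43, -4.46 and 0.72 at 5 weeks, then 0.58, 0.68 and 0.75 at 6 weeks, then -3.81, -3.77 and -3.64 at 7 weeks in RonTK-/-. The range was 57.0-fold, second to that of Cd3g, and no array lay between -3.64 and -0.43.

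Ccr7, the chemokine receptor that guides naive T cells into lymph nodes, was at 0.10, 1.09 and -2.55 at 5 weeks, then -2.66, 0.72 and 0.10 at 6 weeks, then -2.88, 0 and -2.74 at 7 weeks in RonTK+/+. It was at -0.75, -2.57 and 0.66 at 5 weeks, then 0.48, 0.58 and 0.67 at 6 weeks, then -2.72, -2.66 and -2.56 at 7 weeks in RonTK-/-. The low arrays lay close together, from -2.88 to -2.55, and RonTK-/- 5-week array 1, at -0.75, was the lowest of the rest.

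Lef1, a transcription factor kept on in naive T cells, was at 0.22, 0.93 and -2.62 at 5 weeks, then -2.31, 0.65 and 0.08 at 6 weeks, then -2.79, 0.04 and -2.66 at 7 weeks in RonTK+/+. It was at -0.37, -2.70 and 0.67 at 5 weeks, then 0.39, 0.43 and 0.52 at 6 weeks, then -2.29, -2.80 and -2.76 at 7 weeks in RonTK-/-. Its low arrays lay between -2.80 and -2.29, clear of the others by 1.92.

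The mean of Ccr7, Il7r and Lef1 was -0.62 ± 2.21 (SD, n = 3), -0.77 ± 2.03 and -2.12 ± 1.87 in RonTK+/+ at 5, 6 and 7 weeks. It was -1.03 ± 2.01, 0.56 ± 0.08 and -3.00 ± 0.07 in RonTK-/-. Further naive and central memory genes moved less. Dapl1 had the 8 arrays apart, at -1.63 to -0.80 against -0.44 to 1.33. S1pr1, the receptor by which T cells leave lymph nodes, ran from -1.01 to 0.0051 against -0.02 to 0.82 and overlapped, as did Klf2, the factor that drives it, at -1.05 to -0.03 against -0.14 to 0.88.

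The mean of the regulatory T cell markers Foxp3, Ctla4 and Icos covered a smaller span than the mean of the naive markers. Gene by gene this did not always hold. Cd27, also listed for regulatory T cells, had a range of 4.06, against 3.97 for Ccr7 and 3.73 for Lef1. Ctla4 and Icos, but not Foxp3, had the same 8 arrays below the other 10. Foxp3, the defining transcription factor of regulatory T cells, was at 0, 0.29 and -0.49 at 5 weeks, then -0.22, 0.28 and 0.09 at 6 weeks, then -0.45, 0.05 and -0.11 at 7 weeks in RonTK+/+. It was at -0.20, -0.44 and 0.49 at 5 weeks, then -0.0037, 0.41 and 0.35 at 6 weeks, then -0.33, -0.19 and -0.42 at 7 weeks in RonTK-/-. The whole range was 1.97-fold, and the levels overlapped, since RonTK-/- 5-week array 1, at -0.20, was below RonTK+/+ 7-week array 3 at -0.11 and RonTK-/- 7-week array 2 at -0.19.

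Ctla4, an inhibitory receptor high on regulatory T cells, was at 0, 0.62 and -1.23 at 5 weeks, then -0.95, 0.92 and 0.09 at 6 weeks, then -1.49, 0.16 and -1.50 at 7 weeks in RonTK+/+. It was at -0.49, -1.56 and 0.71 at 5 weeks, then 0.48, 0.45 and 0.42 at 6 weeks, then -1.74, -1.64 and -1.76 at 7 weeks in RonTK-/-. The 8 arrays were apart from the others, but RonTK-/- 5-week array 1, at -0.49, stood about midway, so the widest gap left 9 arrays on each side.

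Icos, a costimulatory receptor of activated and regulatory T cells, was at 0.0078, 0.54 and -1.42 at 5 weeks, then -1.52, 0.70 and 0.05 at 6 weeks, then -1.66, 0.12 and -1.37 at 7 weeks in RonTK+/+. It was at -0.30, -1.50 and 0.41 at 5 weeks, then 0.37, 0.38 and 0.49 at 6 weeks, then -1.41, -1.49 and -1.47 at 7 weeks in RonTK-/-. Its low arrays lay between -1.66 and -1.37 and the others between -0.30 and 0.70. For both Ctla4 and Icos the highest array was RonTK+/+ 6-week array 2, and not the 5-week array 2 that led most other genes.

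The regulatory mean was -0.19 ± 0.78 (SD, n = 3), -0.06 ± 0.78 and -0.70 ± 0.70 in RonTK+/+ at 5, 6 and 7 weeks and -0.32 ± 0.85, 0.37 ± 0.08 and -1.16 ± 0.06 in RonTK-/-. Of 4 further regulatory T cell genes, 3 had the 8 arrays below the others. Tnfrsf18, which encodes GITR, ran from -1.67 to -1.11 against -0.24 to 0.78, and Ikzf2, which encodes Helios, from -1.17 to -0.20 against -0.05 to 0.37. Il2ra, which encodes the high-affinity interleukin-2 receptor chain CD25, ran from -0.31 to -0.02 against -0.12 to 0.37 and overlapped.

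Of the adhesion and costimulation genes, 5 besides Thy1 were measured. Cd5, a brake on T cell receptor signals, had a range of 37.3-fold, Cd28, the main costimulatory receptor, 21.2-fold, and Cd2, an adhesion receptor for antigen-presenting cells, 18.8-fold. Cd27, a costimulatory receptor of naive and memory T cells that B cells also carry, had a range of 16.7-fold, and Cd6, a relative of Cd5, 5.42-fold. For all 5, which are among the 30 genes counted above, the 8 arrays were below the other 10, with the smallest gap, 0.85, in Cd6.

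The signalling genes covered a wide span of ranges. Sh2d1a, the adaptor SAP, had a range of 23.4-fold, Skap1 10.5-fold, Lat, the scaffold on which receptor signals assemble, 9.49-fold and Themis 7.92-fold. Txk, a Tec family kinase, had a range of 28.7-fold. Zap70, the kinase that docks on the CD3 and zeta chains, had a range of 2.01-fold, and Ubash3a, a phosphatase-like brake on receptor signals, of 3.31-fold. In Zap70 the low arrays still ended at -0.35, below the -0.10 at which the others began. Its value averages 3 probe sets, whose own ranges ran from 0.57 to 2.25 log2 units.

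Of 22 further genes of T cell receptor signalling outside the 33, 16 had the 8 arrays below the rest. Ptprc, which encodes the leukocyte phosphatase CD45, ran from -3.39 to -2.54 in the low arrays and from -0.39 to 0.92 in the others, and Ptpn22, a phosphatase of lymphocytes, from -3.22 to -2.25 and from -0.47 to 1.13. The 6 that overlapped were Fyn, Plcg1, Bcl10, Nfatc2, Cblb and Dok2. Nfatc2 stayed between -0.11 and 0.11 over all 18 arrays. Of 11 further homing and adhesion genes, 7 had the 8 arrays below the rest, among them Ccr9, a gut-homing receptor, at -1.37 to -1.12 against -0.24 to 0.68. Cxcr4, Cd44, Icam2 and S1pr1 overlapped.

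Bcl11b and Satb1, transcription factors that hold T cell identity and organise chromatin, had ranges of 15.1-fold and 8.93-fold. The Gimap genes encode small GTPases of lymphocyte survival, and Gimap3, Gimap4 and Gimap6 had ranges of 12.9-fold, 8.50-fold and 6.68-fold. For all 5 of these genes, also among the 30 counted above, the 8 arrays were below the other 10.

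Genes of developing thymocytes and cytokines of helper T cells were mostly flat. Rag1 and Rag2, which rearrange antigen receptor genes, stayed between -0.16 and 0.23 and between -0.17 and 0.16, and Dntt and Ptcra, also thymocyte genes, between -0.17 and 0.13 and between -0.19 and 0.18. Of the 7 thymocyte genes, Tox alone had the 8 arrays apart. Of 9 helper genes, Cxcr5, the receptor for the follicle chemokine that B cells also carry, was alone in having them apart, at -1.87 to -1.12 against -0.21 to 0.90. Il4, Il17a and Il21 stayed between -0.19 and 0.32, between -0.15 and 0.18 and between -0.10 and 0.14. Gata3, the type 2 helper factor that other tissues also express, ran from -1.14 to 0.61 with the levels overlapping.

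To find the genes that go their own way, each gene was set against the per-array median of the other 32 over all 153 pairs of arrays, and the share of pairs that differ in the same direction was taken. The share was 79.1% to 94.8% for 32 genes, with a median of 90.2%. Thy1 alone was under the threshold of 75%, at 58.2%. Cd247, Cd6 and Gimap6 had the highest shares.

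Thy1, a surface glycoprotein of mouse T cells that fibroblasts and neurons also carry, was at 0.27, 0.09 and -0.19 at 5 weeks, then -0.68, 0.04 and 0 at 6 weeks, then -0.0042, 0.10 and -0.59 at 7 weeks in RonTK+/+. It was at 0.18, -0.03 and -0.12 at 5 weeks, then 0.06, -0.04 and 0.21 at 6 weeks, then -0.26, 0.19 and 0.19 at 7 weeks in RonTK-/-. The lowest arrays were RonTK+/+ 6-week array 1 and 7-week array 3, but the other 6 arrays that were low for Cd3g stood between -0.26 and 0.19, against -0.12 to 0.27 in the remaining 10. The whole range was 1.93-fold, the narrowest of the 33 genes. The fibroblast list, with a mean between -0.35 and 0.31 over the 18 arrays, did not divide the arrays, nor did the endothelial, adipocyte and luminal epithelial lists. The part of fibroblasts in the Thy1 values was not tested, and Thy1 has a single probe set.

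Prkcq, which encodes protein kinase C theta, a kinase of T cell activation that skeletal muscle also expresses, had the next lowest share at 79.1%. It was at 0.33, 0.85 and -0.31 at 5 weeks, then 0.0021, 0.39 and -0.18 at 6 weeks, then 0, -0.07 and -0.20 at 7 weeks in RonTK+/+. In RonTK-/- it was at 0.29, 0.03 and 0.27 at 5 weeks, then 0.16, 0.37 and 0.43 at 6 weeks, then -0.07, -0.34 and -0.36 at 7 weeks. RonTK+/+ 6-week array 3 was below 4 of the 8 arrays that were low for most genes. The part of muscle, whose list ran opposite to the T lymphocyte genes, was not tested. Thy1, Prkcq and Foxp3 were the 3 genes in which the 8 arrays overlapped the others.

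**Figure D3:**
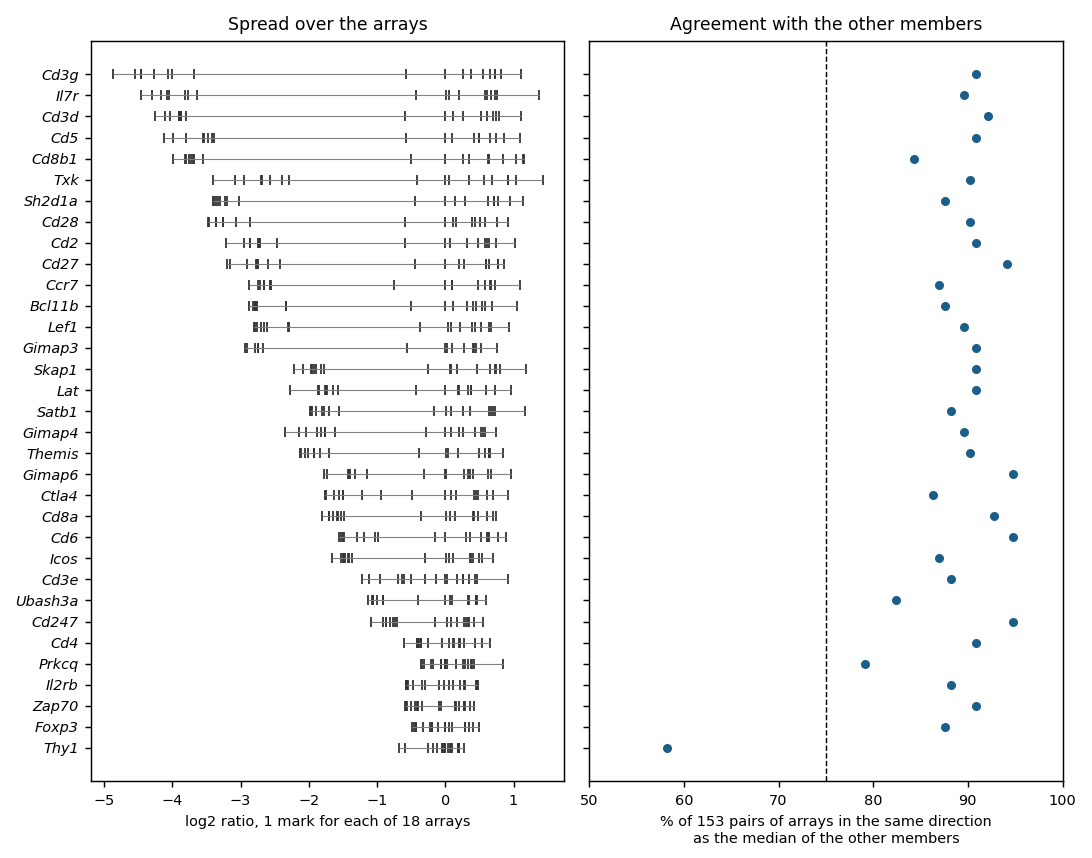
Left, the log2 ratio of each T lymphocyte gene in each of the 18 arrays, with genes ordered by range. Right, the share of 153 pairs of arrays in which the gene and the median of the other genes differ in the same direction, with the 75% threshold as a dashed line. Thy1 lies alone at 58.2% and has the narrowest range, 0.95 log2 units.

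Part of the difference in range between genes lay between probe sets of the same gene. Of the 16 genes with more than 1 probe set, 6 had ranges that differed over 2-fold between them. The ranges of Cd247 ran from 0.28 to 4.64, those of Cd8a from 0.44 to 4.07, those of Zap70 from 0.57 to 2.25 and those of Il2rb from 0.58 to 1.85. Those of Themis ran from 1.84 to 4.32 and those of Bcl11b from 2.17 to 4.96. Of the 64 probe sets, 56 had the 8 arrays below the other 10. The genes of these probe sets picked out the 8 arrays, so nothing is read from that count. The 8 probe sets that did not were 2 of Cd247, 1 each of Cd8a, Il2rb and Zap70, and the only probe sets of Thy1, Prkcq and Foxp3. A small range of a gene with a single probe set is thus a statement on that probe set.

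**Figure D4:**
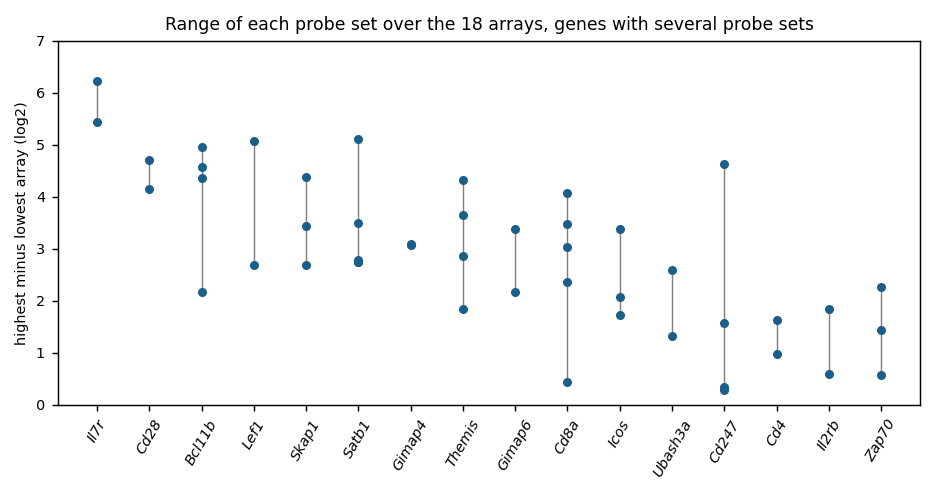
Range over the 18 arrays, highest minus lowest log2 ratio, of each probe set (points) of the 16 T lymphocyte genes with more than 1 probe set, joined by a line per gene. The points of Cd247 reach from 0.28 to 4.64, and those of Gimap4 lie at 3.08 and 3.09.

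The study set RonTK-/- against RonTK+/+, and in that comparison over the 3 ages 0 of the 33 genes were called by limma at an adjusted p under 0.05, with 0 at an unadjusted p under 0.05 (0.0605% and 3.77% of all genes). The median difference of the 33 genes was 0.0049, with 17 genes above 0 and 16 below, and the median over all genes was 0.0028. It reached -0.31 without RonTK+/+ 5-week array 3 and 0.21 without RonTK-/- 5-week array 2, and its sign turned on leaving out any of several single arrays. Thy1 had the smallest p, with a difference of 0.15 ± 0.12 (SE), followed by Cd3e at -0.15 ± 0.22 and Ctla4 at -0.19 ± 0.36, all with limma's adjusted p = 1.00. Over left-out arrays these differences ran from 0.07 to 0.20 for Thy1, from -0.32 to -0.01 for Cd3e and from -0.39 to -0.0097 for Ctla4. Cd3g differed by -0.01 ± 1.02, an error that leaves a difference of 2-fold in either direction within 1 SE.

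At 5 weeks 0 of the 33 genes were called by limma, 0 had an unadjusted p under 0.05, and 0 had the arrays of the genotypes apart (0.011%, 3.42% and 8.21% of all genes). Without RonTK+/+ array 3, 2 genes had an unadjusted p under 0.05. The median difference was -0.25, with 31 genes lower in RonTK-/- and 2 higher. Zap70 (-0.14 ± 0.25, SE), Ubash3a (-0.24 ± 0.45) and Gimap6 (-0.41 ± 0.68) had the smallest p, each with limma's adjusted p = 0.999. The median became 0.42 without RonTK-/- array 2, 0.32 without RonTK+/+ array 2, -0.01 without RonTK+/+ array 1, -0.84 without RonTK-/- array 3 and -1.15 without RonTK+/+ array 3. Each genotype had 1 low array among its 3 at this age.

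At 6 weeks all 33 genes had a higher mean in RonTK-/-, with a median difference of 0.97 against -0.0094 for all genes, and 0 of the 33 were called by limma (0.0165% of all genes). An unadjusted p under 0.05 was found for 0 of the 33 and for 6.15% of all genes. Ubash3a differed by 0.65 ± 0.45 (SE), Thy1 by 0.29 ± 0.21 and Lat by 1.02 ± 0.80, with limma's adjusted p = 0.849, 0.850 and 0.850. The arrays of the genotypes did not overlap for Cd3e, Cd27 and Lat, 3 of the 33, which were higher in RonTK-/-, as were 5.55% of all genes. In either direction 14.3% of all genes did not overlap. RonTK+/+ array 1 was the single low array at this age. Without it the median was 0.18, and Ubash3a, Thy1 and Lat differed by 0.24, 0.05 and 0.38.

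At 7 weeks 32 genes had a lower mean in RonTK-/- and Thy1 a higher one, with a median difference of -0.73, and 0 of the 33 were called by limma or had an unadjusted p under 0.05 (0.033% and 9.75% of all genes). Without RonTK+/+ 5-week array 3, 1 gene had an unadjusted p under 0.05. Cd3e differed by -0.67 ± 0.39 (SE), Ctla4 by -0.77 ± 0.62 and Themis by -0.84 ± 0.82, with limma's adjusted p = 0.611, 0.729 and 0.774. Ctla4 was the 1 gene of 33 whose arrays did not overlap, being lower in RonTK-/-, as 3.35% of all genes were, with 9.73% apart in either direction. Its RonTK-/- arrays stood at -1.74, -1.64 and -1.76 and the lowest RonTK+/+ array at -1.50. RonTK+/+ array 2 was the single higher array among the 6 at this age. Without it the median was 0.01, and Ctla4 and Themis differed by -0.22 and -0.23.

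**Figure D5:**
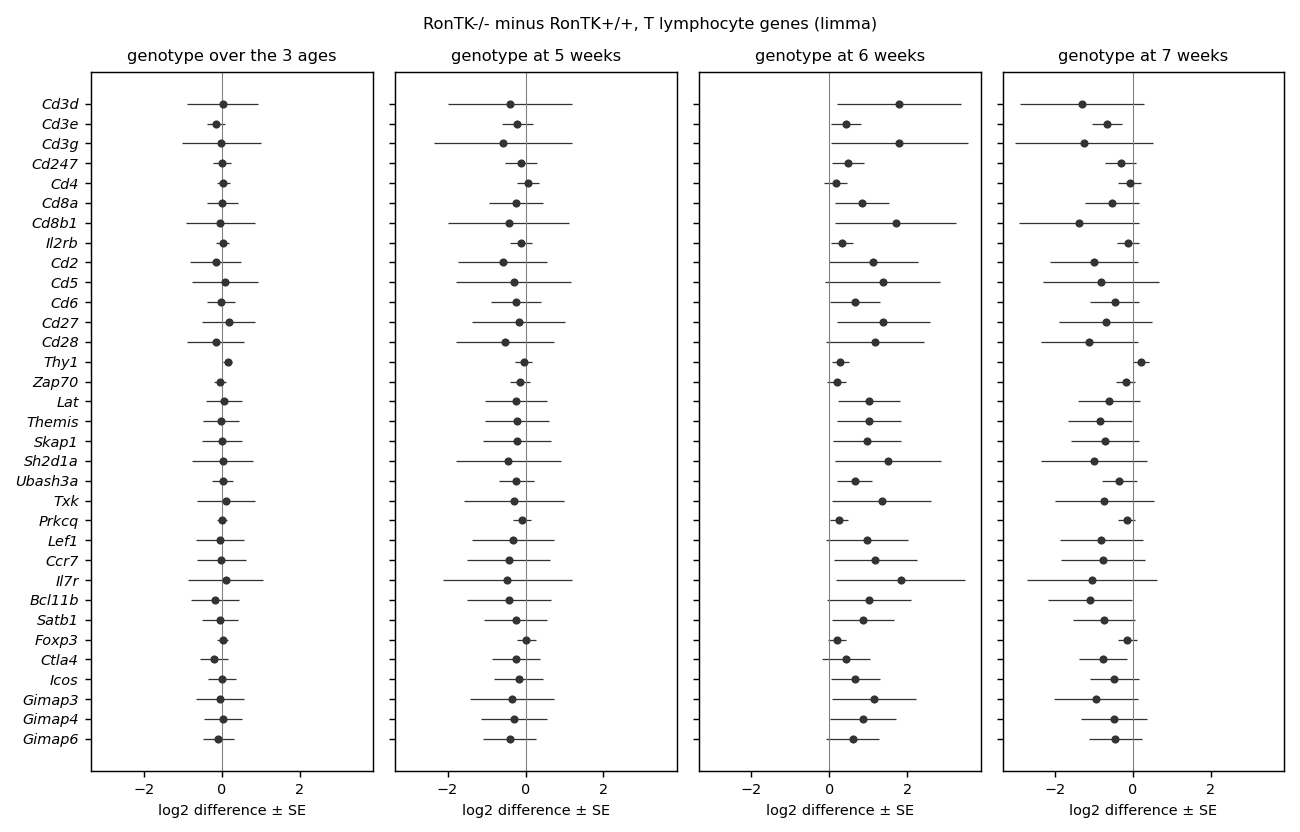
Difference RonTK-/- minus RonTK+/+ in log2 units (points) with the standard error of limma (lines) for each T lymphocyte gene, over the 3 ages and at 5, 6 and 7 weeks. Points lie below 0 for 31 of 33 genes at 5 weeks, above 0 for all 33 at 6 weeks and below 0 for 32 of 33 at 7 weeks, with errors of up to 1.76 log2 units.

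The genotype difference was not shown to change with age for any of the genes. In limma's interaction of genotype and age 0 of the 33 were called and 0 had an unadjusted p under 0.05 (0% and 6.82% of all genes). Without RonTK+/+ 5-week array 3, 2 had an unadjusted p under 0.05. The smallest p were those of Cd3e, Ubash3a and Themis, with adjusted p = 0.698, 0.725 and 0.734. With array weights limma called 1 of the 33 and 31.5% of all genes.

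In RonTK+/+ all 33 genes had a lower mean at 7 than at 5 weeks, with a median difference of -0.90, and 0 were called over the 3 ages by limma's F test, with 0 at an unadjusted p under 0.05 (0.104% and 8.92% of all genes). Without RonTK+/+ 5-week array 3, 3 had an unadjusted p under 0.05. Prkcq, Ctla4 and Zap70 had the smallest p of the F test, with limma's adjusted p = 0.813, 0.823 and 0.833. Their differences between 7 and 5 weeks were -0.38 ± 0.22 (SE), -0.74 ± 0.62 and -0.32 ± 0.25. Without RonTK+/+ 5-week array 2 these differences were -0.10, -0.33 and -0.11, and over the other left-out arrays each was larger in size than that. The 5-week and 6-week groups each held 1 low array and the 7-week group 2. With array weights in the fit, limma called 31 of the 33 genes over the 3 ages and 53.8% of all genes. The estimation of these weights stopped before it converged, and RonTK-/- 5-week array 1 alone had a weight of 50.8.

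In RonTK-/- 32 of the 33 genes had a lower mean at 7 than at 5 weeks, with a median difference of -1.45. Again 0 were called over the 3 ages by limma's F test (0.0385% of all genes). The p-values of this F test cover all 3 ages, whereas the differences given are 7 minus 5 weeks alone. In this F test an unadjusted p under 0.05 was found for 22 of the 33 genes and for 17.5% of all genes. Ctla4, Cd3e and Themis had the smallest p of the F test, with limma's adjusted p = 0.236, 0.236 and 0.251. Between 7 and 5 weeks Ctla4 differed by -1.27 ± 0.62 (SE), Cd3e by -0.89 ± 0.39 and Themis by -1.45 ± 0.82. Without RonTK-/- 5-week array 3, Ctla4 and Themis differed by -0.69 and -0.84. The same array weights gave 32 of the 33 genes and 57.9% of all genes called. The count of 22 depended on single arrays. Leaving out 1 array of the 6-week group left 5, 4 or 3 genes, leaving out 1 of the 7-week group left 4, 2 or 3, and the count was 30 without RonTK-/- 5-week array 2 or RonTK+/+ 5-week array 3. Of the wider lists, 12 of 28 genes of T cell receptor signalling, 4 of 18 cytotoxic and natural killer, 5 of 8 regulatory, 4 of 7 naive, 4 of 12 homing, 2 of 9 helper, 2 of 7 thymocyte and 2 of 2 gamma delta T cell genes had an unadjusted p under 0.05 for age in RonTK-/-, and 0 genes of these lists were called by limma in any of the 7 comparisons. Several of these lists share genes with the 33 already counted. Sox13, of the gamma delta list, differed by 0.29 ± 0.07 (SE) between 7 and 5 weeks. Its adjusted p in limma's F test over the 3 ages was 0.168.

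The 6-week and 7-week RonTK-/- groups were the only ones whose 3 arrays shared a level, and this pair of groups was picked for its levels of these same genes, so nothing is read from the counts that follow. At 7 weeks 32 of the 33 genes, all but Thy1, had every array below every 6-week array, as did 16.7% of all genes. The median difference was -2.50, from -4.69 ± 1.76 (SE) for Cd3g to -0.03 ± 0.21 for Thy1. Of the 33 genes 0 were called by limma (0% of all genes), 31 had an unadjusted p under 0.05 (22.6% of all genes), and the smallest adjusted p was 0.149, for Ctla4 at -2.16 ± 0.62. Between the same ages in RonTK+/+ the median difference was -0.89, 0 genes were called by limma, 0 had an unadjusted p under 0.05 and 0 were apart (0.011%, 9.15% and 6.28% of all genes).

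Beside this step, the B lymphocyte mean was 0.33 ± 0.15 (SD, n = 3) in the 6-week and -1.70 ± 0.06 in the 7-week RonTK-/- arrays. The skeletal muscle mean was -4.90 ± 1.01 and 0.25 ± 0.13. What was taken with the gland and the age of the mice cannot be told apart within these 2 groups.

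Genotype differences were also fitted relative to the B lymphocyte genes. With the B lymphocyte mean of each array as a covariate, the median difference of the 33 genes was 0.06 over the 3 ages and 0.09, 0.10 and 0.01 at 5, 6 and 7 weeks, and 0 were called by limma in any of the 7 comparisons. The standard errors over the 3 ages were then 0.05 to 0.17, against 0.12 to 1.02 without the covariate. Cd27 was higher in RonTK-/- by 0.27 ± 0.11 (SE) and Txk by 0.21 ± 0.09, the 2 genes with an unadjusted p under 0.05, with limma's adjusted p = 0.801 and 0.822. Over all genes 0.0824% were called and 5.80% had an unadjusted p under 0.05 in that fit. For age in RonTK-/-, the 22 genes with an unadjusted p under 0.05 became 0 with this covariate, against 12.7% of all genes, and the median difference was -0.03, with 13 genes above 0 and 20 below. With the skeletal muscle mean in its place 1 gene had an unadjusted p under 0.05, against 12.1% of all genes, and the median difference was -0.83, with 32 of the 33 below 0. The B lymphocyte mean parted the same arrays as the 33 genes. In RonTK-/- it went from 0.33 at 6 weeks to -1.70 at 7 weeks, and the muscle mean from -4.90 to 0.25. These fits therefore cannot hold age in RonTK-/- apart from either mean, and nothing is read from the lower counts.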

How the data were processed

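Total RNA of 18 mammary gland samples was amplified, labelled with biotin and read on Affymetrix GeneChip arrays of the mouse genome, per the labels' protocols. The deposited values were read from the table itself as linear ratios to the RonTK+/+ median, and the authors' software and probe set summary are not named in the sources used here. Of 45101 probe sets, 64 controls were left out, and 34945 with a single gene symbol gave 18193 genes, each the mean log2 of its deposited ratios, with no pseudocount. Signal over background is unknown, so dim probe sets could not be left out. The number of arrays limits the precision.

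A model with 1 mean per group was fitted to all genes and arrays (limma 3.58.1 with R 4.3.3, lmFit and eBayes), and Benjamini-Hochberg adjustment ran over all genes at a threshold of 0.05. Genotype was tested with the two-sided moderated t, age and interaction with the moderated F, with the direction from 7 minus 5 weeks. The code was tested on simulated data. The 33 genes and the lists were chosen with earlier results of these data known. All genes of the set are accounted for; per-array values are given for the receptor, coreceptor and subset markers and for genes that do not follow the rest, and the 3 smallest p are named in each comparison. Alternatives covered scaling, weights, blocks, covariates, probe set choice, thresholds and left-out arrays. Figures used Python 3.11.15 with matplotlib 3.10.9.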

Additional observations from a re-analysis of the deposited data

How the results depend on the processing

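Counts of called genes stayed at 0 of 33 in all 7 comparisons with quantile normalization, median centring, the B lymphocyte or skeletal muscle mean as a covariate, the probe set of largest SD, every probe set alone, an adjusted p under 0.1, only the groups compared where this can be fitted, and each array left out. With array weights, limma called 1 gene for the interaction, 31 for age in RonTK+/+ and 32 for age in RonTK-/-, and 31.5%, 53.8% and 57.9% of all genes. The weights ran from 0.218 to 50.8 and did not converge, and the cause was not tested. With a threshold of 80% in place of 75%, 2 genes did not follow the rest, Thy1 and Prkcq. Array numbers were not used to pair the samples. Same-numbered arrays of different groups had a mean correlation of 0.09 over 45 pairs, against -0.05 over 90 pairs of different number. Deviations from group means were correlated, and these cancel out within each group, so the second mean largely follows from the first. Of the 18 arrays 7 matched their own number best. Same-numbered pairs ran from -0.83 to 0.87, too wide a spread for this check to exclude pairing. With the replicate number as a block, 0 genes were called in any comparison and the median genotype difference was 0.0049.

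The interaction (7 minus 5 weeks) of Ubash3a, -0.11, turned to 0.039 with quantile normalization, 0.28 with array weights, 0.045 with the B lymphocyte and 0.18 with the skeletal muscle covariate. Over left-out arrays it ran from -0.45 to 0.31, that of Themis from -1.33 to 0.26 and that of Cd3e from -0.87 to 0.068. All 3 turned without RonTK+/+ 5-week array 3, and that of Ubash3a also without RonTK-/- 5-week array 3 (0.28) or RonTK+/+ 7-week array 2 (0.25). Themis turned to 0.21 with array weights. At 5 weeks the difference ran from -0.44 to 0.079 for Zap70, from -0.66 to 0.10 for Ubash3a and from -1.09 to 0.24 for Gimap6, turning without array 2 of either genotype. The causes were not tested. With 3 arrays a group and both levels within most groups, differences of several-fold stayed within the error for Cd3g, Cd3d and Il7r.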

Other observations

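Dendritic cell genes were divided in the arrays that were low for T lymphocyte genes. Of 8 measured, 4 had the 8 arrays below the other 10. H2-Ob, which encodes a chain of the H2-O complex and is also made by B cells, ran from -4.55 to -3.19 in the low arrays and from -0.42 to 1.17 in the others. Flt3, a receptor for a dendritic cell growth factor, ran from -0.65 to -0.34 against 0 to 0.58, and Siglech, a marker of plasmacytoid dendritic cells, from -0.74 to -0.29 against 0 to 0.64. Zbtb46, the factor of classical dendritic cells, stayed between -0.22 and 0.18 over all 18 arrays and overlapped.

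Of 2 measured genes of gamma delta T cells, Cd163l1 had the 8 arrays below the other 10, at -0.40 to -0.22 against 0.0076 to 0.40, and Sox13, at -0.10 to 0.38 against -0.21 to 0.08, did not.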
